A study of Mus musculus with 8 samples.

Results

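The 10 Notch pathway genes described here are the ligands Dll1, Dll4, Jag1 and Jag2, the receptors Notch1 and Notch4, the DNA-binding partner Rbpj and the target genes Hes1, Hey1 and Hey2. They were taken by gene symbol from a table of 20057 genes, and all 10 were present. The values come from tumor endothelial cells of 8 B16.F10 melanomas that grew under the skin of male C57BL/6 mice, implanted with 250000 melanoma cells at 8 weeks of age. Of these tumors, 4 received the agonistic CD40 antibody FGK4.5 (anti-CD40; libraries 5N, 6L, 6R and 10N, named after the mice) and 4 the rat IgG2a isotype antibody 2A3 (isotype; libraries 5L, 7N, 8N and 9L). Each mouse was given 2 injections of 30 µg around the tumor, on days 13 and 16, and by the labels was sacrificed 1 day after the second. For sorting experiments of this kind the study's methods give sacrifice 1 and 4 days after it and a correction for harvest day, which differs from the single day in the labels. About 100000 live cells without CD45 and with CD31 were sorted from each tumor, and 10 ng of RNA went into each library. A value is given in normalized reads, which are the reads on a gene divided by a size factor of its library, so that libraries of different depth share a scale.

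Notch signaling passes from cell to cell. A Delta-like or Jagged ligand on 1 cell binds a Notch receptor on its neighbor, the receptor is cut by ADAM proteases and then by γ-secretase, and its intracellular part enters the nucleus, where it joins RBPJ on DNA and switches on repressors of the Hes and Hey families. In growing vessels, DLL4 on the leading tip cell restrains sprouting of the cells behind it through NOTCH1, and JAG1 counteracts DLL4. NOTCH4 is a receptor found mainly in endothelium, and HEY1 and HEY2 are tied to arterial fate. Mural cells, which wrap the endothelium, use NOTCH3 and respond to endothelial JAG1.

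RBPJ binds DNA at the core TGGGAA, and the longer form CGTGGGAA is its preferred site. The RefSeq promoter windows (GRCm38.p6, the same build as mm10) run from 250 bases before to 50 bases after a transcription start and matched 8 of the 10 genes, with 10 windows in all. Those of Hes1 and Hey1 were not in that table. On either strand, TGGGAA occurred in 25.6% of all 32851 windows, and among these genes in those of Hey2 and Rbpj only. CGTGGGAA, which contains TGGGAA, occurred in 0.734% of all windows, with 2 or more copies in 4 of them (0.0122%). Hey2, the target gene among the 8, held 2 copies. They are shown because they are the letters that RBPJ is known to read, in a 30-base stretch 5′ to 3′ along the gene's strand, with CGTGGGAA or its complement in capitals. The first stretch is chr10:30842972-30843001 (minus strand), where the match lies on the strand opposite to the gene, 207 to 200 bases before the start. The second is chr10:30842770-30842799 (minus strand), where it spans the start, from base -5 to base 3.
Hey2 distal: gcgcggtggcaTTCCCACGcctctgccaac
Hey2 proximal: ctgggctgcagCGTGGGAAagaacctccag
The Rbpj window nearest its upstream RefSeq start held 2 copies of TGGGAA, shown in capitals as TGGGAA at chr5:53590185-53590214 (plus strand, 149 to 144 bases before the start) and as its complement at chr5:53590269-53590298 (plus strand, 65 to 60 bases before it).
Rbpj distal: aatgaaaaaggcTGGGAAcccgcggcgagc
Rbpj proximal: gacgctcgcattTTCCCAggacccctcctc
A match describes the letters of the window only. Binding of RBPJ was not measured. CACGCG, a sequence that HES repressors can bind, occurred on either strand in 4 of the 10 windows, against 9.27% of all windows. These belonged to the 4 ligands, and the windows of the other 4 genes held none. The windows were not matched for base composition, and binding of HES repressors was not measured. CACGTG, the other such sequence searched, was in none of the 10 windows, against 7.15% of all windows.

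The reads on genes numbered between 12512772 and 64938728 in the anti-CD40 libraries and between 2971689 and 35583141 in the isotype libraries, so that a single read counted for 0.118 (5N) to 2.44 (5L) on the normalized scale. The 3 shallowest libraries (5L, 7N and 8N) are all isotype libraries. The sort was checked on markers. The summed level of 8 pan-endothelial markers, all of them detected in every library, ranged from 33596 to 49594 normalized reads with anti-CD40 and from 30315 to 41651 with isotype. Of 10 leukocyte markers, 6 had a mean under 10 normalized reads, and their summed level ranged from 216 to 421 with anti-CD40 and from 144 to 337 with isotype. RNA of other cells was present at high level. The sum of 6 fibroblast markers ranged from 88497 to 249100 normalized reads over the 8 libraries, that of 7 melanoma markers from 35745 to 93734 and that of 8 mural markers from 12385 to 39474. None of these sums separated the treatments (exact two-sided permutation tests, p between 0.257 for the leukocyte markers and 0.743 for the melanoma markers). By single genes, 7 of 8 mural markers and 7 of 7 melanoma markers had a log2 fold change, anti-CD40 over isotype, below 0 (medians −0.23 and −0.07), 5 of 6 fibroblast markers had one above 0 (median 0.15), and none of these markers had a limma unadjusted p of at most 0.05. Over all genes tested, 51.3% had a log2 fold change above 0 and 2.01% had such a p. Markers of 1 cell type share the same libraries and are not independent. Of the 4 leukocyte markers tested, 2 lay above 0, Itgam (ratio 2.03, limma unadjusted p = 0.0612) and Lyz2 (ratio 1.54, limma unadjusted p = 0.0863), while Ptprc, which encodes CD45, was 9.99 ± 8.46 normalized reads with anti-CD40 and 2.52 ± 2.04 with isotype (SD, n = 4 each). Fewer cells of a type and less RNA per cell cannot be told apart in such bulk values, and the part of other cells in the Notch values was not tested.

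Dll4 was the most abundant of the 10 genes when levels were divided by gene length. On the scale of normalized reads per kb of merged exon (GENCODE M21 on mm10), its level was 753 ± 168 (SD, n = 8 libraries). Notch4 followed at 404 ± 91.3 and Notch1 at 206 ± 37.3, so that the endothelial receptor Notch4 lay above Notch1 in all 8 libraries. Hey1 (195 ± 59.6), Hes1 (185 ± 52.0) and Jag1 (179 ± 34.8) formed a group with near-equal levels, and Rbpj came next at 136 ± 39.9. Jag2 (75.8 ± 23.3) and Dll1 (68.9 ± 20.1) were lower, and Hey2 was the lowest by far at 12.4 ± 6.32 normalized reads per kb. Each gene was compared with its neighbor in this order by an exact sign-flip permutation test of the log2 ratio within the libraries, adjusted over 9 comparisons. The order was set by the same values, so the pairs and their directions were not independent of the test. Its p describes the spread between libraries and not the uncertainty of the gene lengths. Dll4 exceeded Notch4, Notch4 exceeded Notch1, and Dll1 exceeded Hey2 in all 8 libraries (adjusted p = 0.0234 for each, from p = 0.00781, the smallest this exact permutation test gives). Jag1 exceeded Rbpj and Rbpj exceeded Jag2 in 7 of 8 libraries (adjusted p = 0.0281 each, exact permutation test). The order among Notch1, Hey1, Hes1 and Jag1, and that of Jag2 against Dll1, was within the spread between libraries (adjusted p between 0.645 and 0.820, exact permutation tests). With the length of the longest coding transcript in place of merged exons, a choice made after seeing the data, the ranks were the same but Rbpj, which has 5 coding transcripts, moved to 172. Jag1 then exceeded it in 5 of 8 libraries only (mean log2 ratio 0.07 in place of 0.41, adjusted p = 0.659, exact permutation test), so that their difference was past the threshold with merged exons only. The remaining receptors of the family, named here to complete it, were Notch3 at 223 ± 70.5 and Notch2 at 38.0 ± 2.10 normalized reads per kb.

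**Figure D1:**
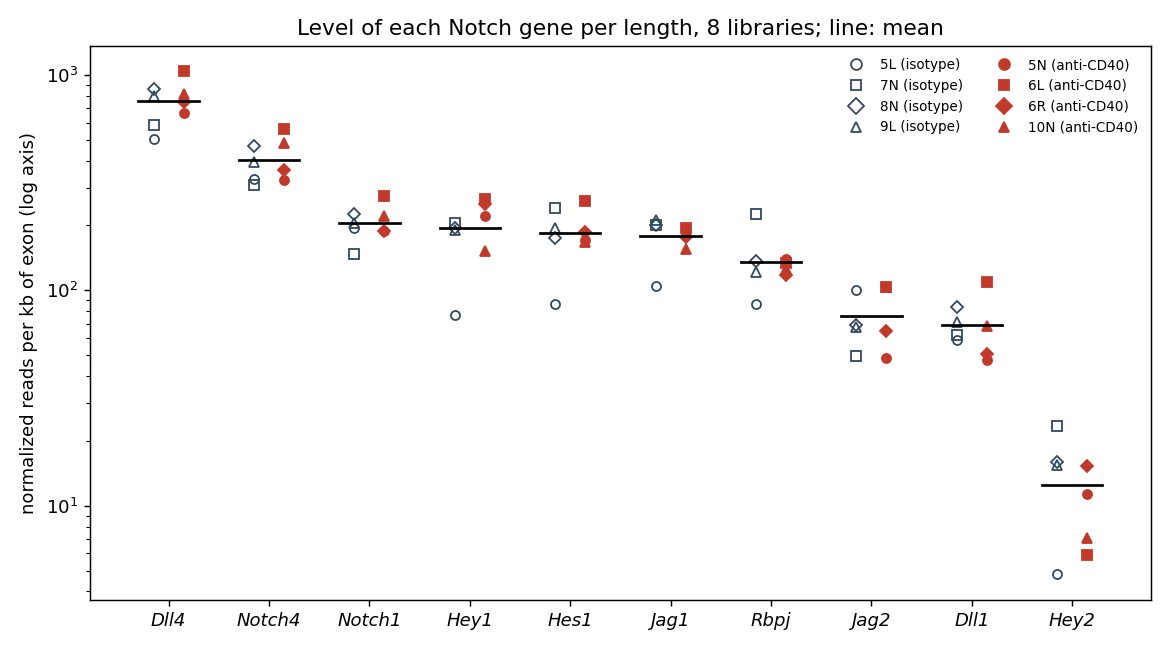
Level of each Notch gene in normalized reads per kb of merged exon, on a log axis. Each point is 1 library (open, isotype; filled, anti-CD40) and the line is the mean of 8 libraries, from 753 for Dll4 down to 12.4 for Hey2.

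No Notch ligand differed between the treatments beyond the spread between tumors. Dll4 (mm10 chr2:119325784-119335962, plus strand), the main ligand of sprouting vessels, was 2491, 3904, 2810.4 and 3066 normalized reads in 5N, 6L, 6R and 10N, and 1894, 2196, 3217 and 3002 in the isotype libraries 5L, 7N, 8N and 9L. Library 6L was the highest of all and the isotype libraries 5L and 7N the lowest, while 8N and 9L lay within the anti-CD40 range. The means were 3068 ± 605 and 2577 ± 633 (SD, n = 4 each), a ratio of 1.19. The log2 fold change on the log2(value + 1) scale was 0.27 (95% interval −0.16 to 0.69, limma unadjusted p = 0.201), so that the interval reached from 0.892-fold to 1.62-fold. The log2 fold change of Dll4 was 0.13 without 5L, 0.14 without 6L and 0.01 with library quality weights. Jag1 (chr2:137081456-137116644, minus strand), the ligand that opposes DLL4 in sprouting, was 1042, 1089.7, 991 and 869 normalized reads with anti-CD40 and 587, 1130.1, 1127 and 1188 with isotype. Isotype tumors 7N, 8N and 9L thus lay above all the anti-CD40 tumors, and 5L lay below them.
The means of Jag1 were 998 ± 94.8 and 1008 ± 282 (SD, n = 4 each), and the log2 fold change was 0.03 (95% interval −0.43 to 0.50, limma unadjusted p = 0.871). Without 5L it was −0.21 (limma unadjusted p = 0.0969). Jag2 (chr12:112907819-112929776, minus strand) was 248, 529, 331 and 527 normalized reads with anti-CD40 and 511, 252, 351 and 345 with isotype. It varied about as widely within a treatment as over all tumors, and its highest isotype value was in 5L, the library that was lowest for Jag1. Dll1 (chr17:15367354-15376872, minus strand), a ligand better known from embryonic segmentation and arterial vessels, was 169.6, 392.3, 180.5 and 246 normalized reads with anti-CD40 and 210.2, 221, 299 and 256 with isotype. Both its highest and its lowest values came from anti-CD40 tumors. The log2 fold changes were 0.14 for Jag2 (95% interval −0.47 to 0.74) and −0.07 for Dll1 (95% interval −0.62 to 0.49), while the ratio of means of Dll1 was 1.001. Single libraries set both directions, since Jag2 was 0.35 without 5N and −0.03 without 7N, and Dll1 was 0.08 without 5N and −0.32 without 6L. Exons of antisense genes cover 17.4% of the merged exons of Dll1 and 5.71% of those of Dll4, and since the kit does not mark strand, their reads cannot be told apart there.

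Neither receptor differed between the treatments beyond the spread between tumors. Notch1 (chr2:26457903-26516663, minus strand) was 1797, 2614, 1780.3 and 2099 normalized reads with anti-CD40 and 1838, 1394, 2152 and 1944 with isotype. Notch4 (chr17:34564268-34588503, plus strand) was 2145, 3714, 2373 and 3194 with anti-CD40 and 2173, 2041, 3068 and 2593 with isotype. For both receptors 6L was the highest library and 7N the lowest, and the groups overlapped. Notch1 had means of 2072.5 ± 389.6 and 1832 ± 319.8 (SD, n = 4 each) and a log2 fold change of 0.18 (95% interval −0.19 to 0.55, limma unadjusted p = 0.311). Notch4 had means of 2857 ± 728 and 2469 ± 464 (SD, n = 4 each) and a log2 fold change of 0.19 (95% interval −0.23 to 0.62, limma unadjusted p = 0.340). Without 6L the log2 fold changes were 0.06 for Notch1 and 0.06 for Notch4, and without 7N they were 0.05 and 0.11. Exons on the opposite strand cover 14.5% of the merged exons of Notch1 and none of those of Notch4. Rbpj (chr5:53466152-53657362, plus strand), through which all Notch receptors act on DNA, was 972, 930.5, 820.1 and 873 normalized reads with anti-CD40 and 599, 1565, 951 and 842 with isotype. Its 4 anti-CD40 values were close together and lay inside the range of the isotype values, which held both the highest library, 7N, and the lowest, 5L. The means were 899 ± 66.2 and 989 ± 411 (SD, n = 4 each), and the log2 fold change was −0.05 (95% interval −0.58 to 0.47, limma unadjusted p = 0.826). The log2 fold change of Rbpj was −0.27 without 5L and 0.20 without 7N.

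Of the target genes, Hey1 had the lowest p of the 10 genes, and Hey2 went in the opposite direction on few reads. Hey1 (chr3:8663359-8667256, minus strand), a repressor induced by Notch in endothelium, was 536, 641, 612 and 368 normalized reads with anti-CD40 and 186, 497, 471 and 461 with isotype. In 3 of 4 anti-CD40 libraries it exceeded every isotype library, while 10N lay below 7N, 8N and 9L. The means were 539 ± 123 and 404 ± 146 (SD, n = 4 each), a ratio of 1.34, and the log2 fold change was 0.49 (95% interval −0.19 to 1.16, limma unadjusted p = 0.140). Without 5L the log2 fold change of Hey1 was 0.15. With library quality weights it was 0.22 (limma unadjusted p = 0.282), and Hey2 then had a lower p (limma unadjusted p = 0.0929). Hes1 (chr16:30064384-30067796, plus strand), a target in most cell types, was 252, 381, 273 and 247 normalized reads with anti-CD40 and 127, 352, 257 and 286 with isotype. Library 5L was again the lowest, and the other isotype libraries lay within the anti-CD40 range. The log2 fold change of Hes1 was 0.24 (95% interval −0.39 to 0.87, limma unadjusted p = 0.414), and −0.06 without 5L.
Hey2 (chr10:30832359-30842801, minus strand), a repressor of the same family tied to arterial fate, was 29.0, 15.1, 39.1 and 18 normalized reads with anti-CD40 and 12.2, 59.5, 40.8 and 39.4 with isotype. Its lowest value, in 5L, rests on 5 reads, and the 4 isotype libraries together held 242 reads against 382 with anti-CD40. The means were 25.3 ± 10.98 and 38.0 ± 19.5 (SD, n = 4 each), and the log2 fold change was −0.47 (95% interval −1.54 to 0.60, limma unadjusted p = 0.353). Without 5L the log2 fold change of Hey2 was −0.93 with an unadjusted limma p of 0.0274, past the threshold defined next, where 0.945% of all genes tested were called lower, against 0.239% with all 8 libraries. This was the only one of 20 alternative settings in which any of the 10 genes passed it. Among the fits that left out a library, it gave Hey2 its largest change. The smallest came without the isotype library in which Hey2 was highest (59.5 normalized reads), at −0.19 (limma unadjusted p = 0.701).

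**Figure D2:**
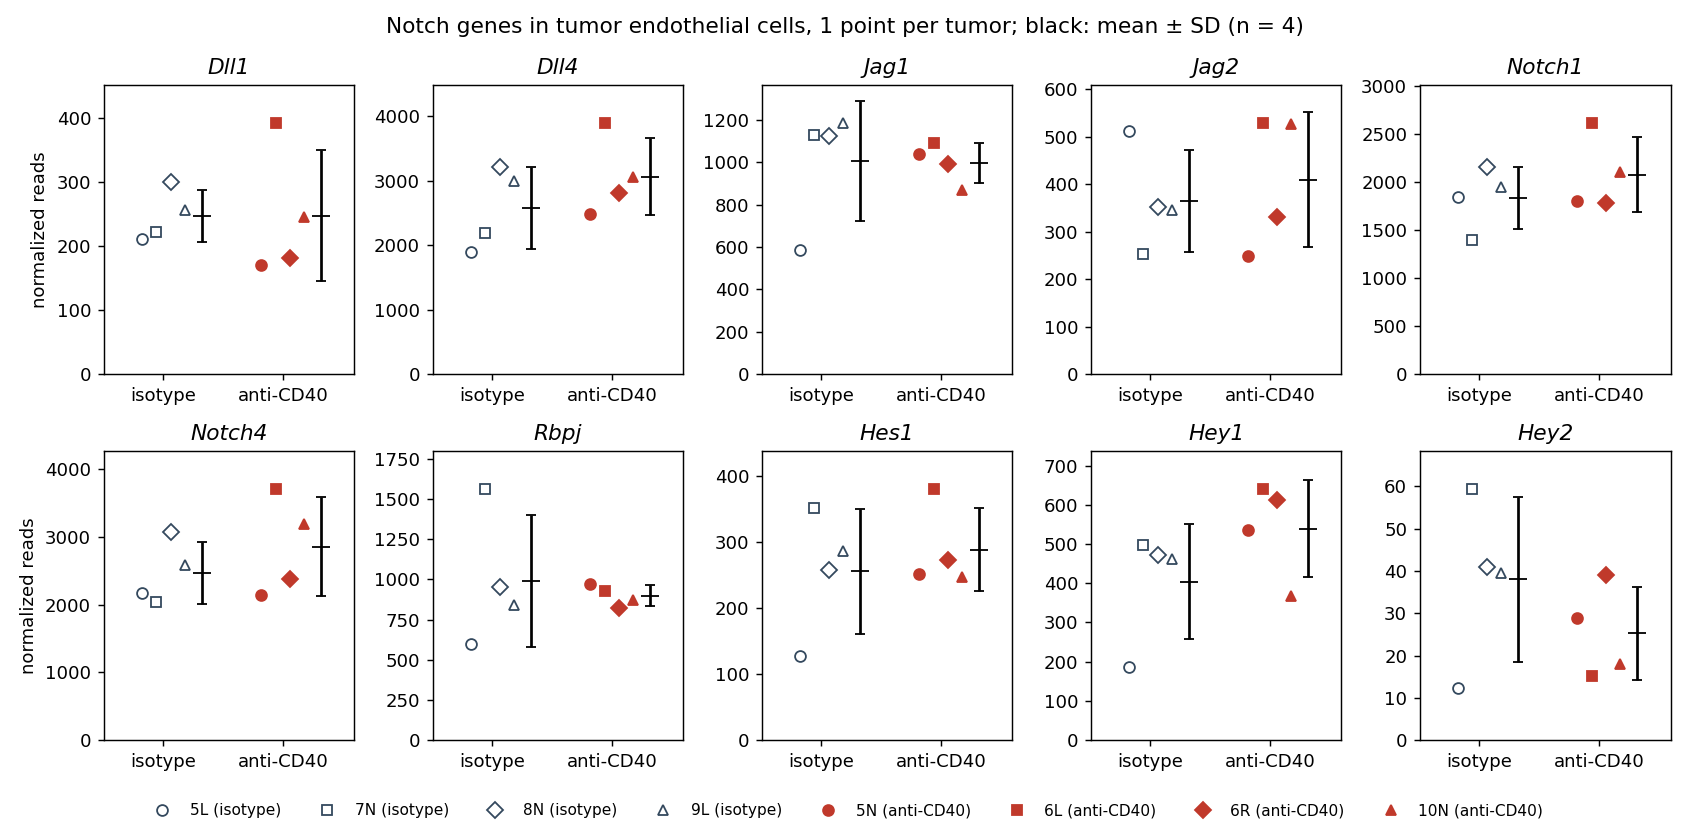
Normalized reads of the 10 Notch genes by treatment, each axis starting at 0. Each symbol is 1 tumor (open, isotype; filled, anti-CD40) and the black bars are the mean ± SD (n = 4). Isotype library 5L is the lowest point for Dll4, Jag1, Rbpj, Hes1, Hey1 and Hey2, and anti-CD40 library 6L is the highest for 7 of the 10 genes.

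The treatments were compared gene by gene, to see what an antibody that stimulates CD40 changes in the RNA of tumor vessels. A gene was called when its group means differed at least 1.5-fold and limma's unadjusted p, from a fit over 12969 genes with a larger group mean above 10, was at most 0.05. By this rule 0 of the 10 Notch genes were called, against 1.52% of all genes tested (1.28% higher and 0.239% lower). None had an unadjusted p of at most 0.05, which 2.01% of all genes had, and the adjusted p was 0.9997 for each (Benjamini-Hochberg over all genes tested, where 0.0154% were under 0.05). With edgeR's quasi-likelihood test and with DESeq2 on the recovered reads, 0 of the 10 were called as well, and no unadjusted p was at most 0.05. Of all 12969 genes, edgeR called 150 higher and 47 lower, and DESeq2 161 higher and 58 lower. At such a background a count of 0 in 10 genes does not set the Notch genes apart. The exact permutation p of single genes lay between 0.257 for Hey1 and 1 for Jag1, where the smallest p of 4 against 4 is 0.0286. The groups overlapped for all 10 genes, whereas they did not for 1.57% of all genes tested. The log2 fold change was above 0 for 7 of the 10 and below 0 for Dll1, Rbpj and Hey2, with a median of 0.16, beside 51.3% above 0 and a median of 0.00 over all genes tested. The 8 pan-endothelial markers had a median of 0.15, with 87.5% above 0. The median of the Notch genes was 0.02 without 6L, 0.03 without 5L, 0.03 relative to the pan-endothelial markers and −0.01 with library quality weights. It was 0.27 without 5N, the highest with any library left out. A change of 1.5-fold, or 0.585 on the log2 scale, lay outside the 95% interval in both directions for 3 genes, Notch1, Jag1 and Rbpj. For the other 7 the interval reached that size in at least 1 direction, and the widest was that of Hey2.

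**Figure D3:**
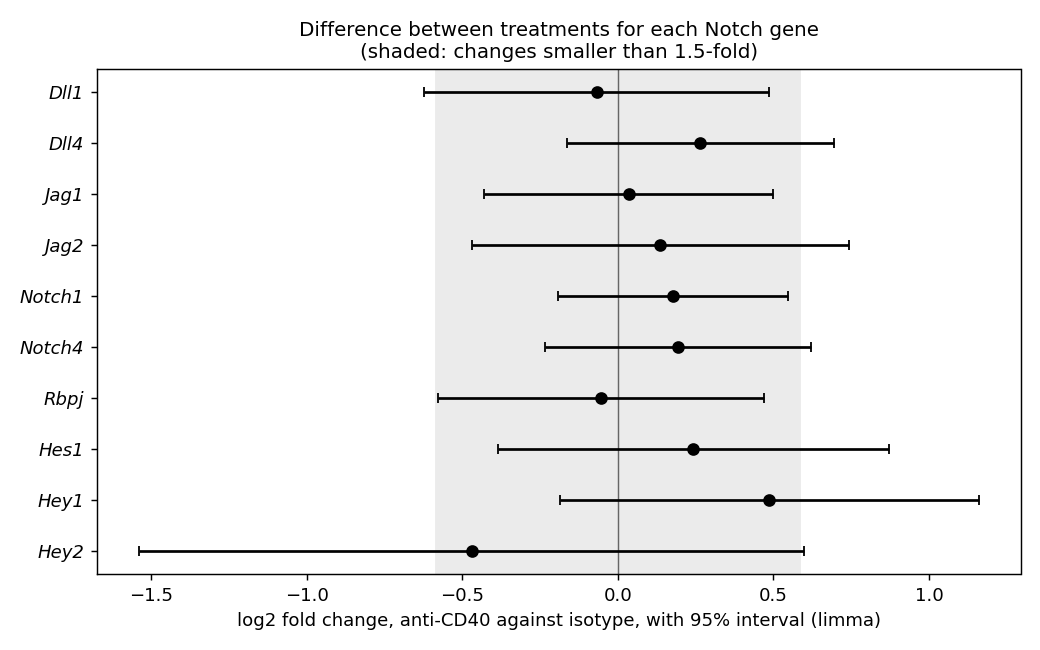
Log2 fold change of each Notch gene, anti-CD40 against isotype, with its 95% interval from limma (n = 4 tumors per group). The shaded band marks changes smaller than 1.5-fold (0.585 on the log2 scale), and every interval includes 0.

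The other genes of the pathway were taken from a list of 50 ligands, receptors, modifying enzymes, proteases, cofactors, inhibitors and targets. All 50 were in the table and 44 were tested. Of these, 20 (45.5%, against 51.3% of all genes tested) had a log2 fold change above 0 and 24 below, with a median of −0.01. By the rule 1 of the 44 was called, Dlk1, which was lower with anti-CD40, where 0.239% of all genes tested were called lower and 1.52% in either direction. Dlk1 encodes a Delta-like protein that lacks the domain through which Notch ligands bind. It was 55.5, 170.1, 80.0 and 165 normalized reads with anti-CD40 and 137, 197, 221 and 218 with isotype. Libraries 5N and 6R lay below every isotype library, but 6L and 10N overlapped with them. The means were 118 ± 58.7 and 193 ± 39.0 (SD, n = 4 each), a ratio of 0.610, and the log2 fold change was −0.84 (95% interval −1.60 to −0.07, limma unadjusted p = 0.0348, adjusted p = 0.9997). The call did not hold without 5N, 6R, 7N, 8N or 9L, each left out alone, nor without the variance trend in limma. The log2 fold change of Dlk1 was −0.53 without 5N, between −0.82 and −0.70 without the other 4 of these libraries and −0.84 without the trend. It was −0.97 with library quality weights (limma unadjusted p = 0.00486) and −0.96 relative to the pan-endothelial markers (limma unadjusted p = 0.00433), and −1.06 without 6L (limma unadjusted p = 0.0121). In these settings 70, 47 and 29 of all genes tested were called lower, against 31 in the main fit. The next lowest p belonged to Aph1b, a subunit of γ-secretase, with a log2 fold change of −0.30 (limma unadjusted p = 0.0996), and to Kat2b, an acetyltransferase that joins the Notch complex on DNA, with 0.21 (limma unadjusted p = 0.108).
By mean level, Egfl7, Adam10 and Ncor1 led the list. Egfl7 encodes a protein secreted by endothelium and Adam10 the protease that makes the first ligand-induced cut. Ncor1 encodes a corepressor found with RBPJ in the absence of Notch. Their log2 fold changes were 0.14, −0.06 and 0.00, with standard errors of 0.21, 0.12 and 0.11. The 6 genes below the limit for testing were Dll3, Dlk2, Hes2, Hes5, Hes7 and Rbpjl, which had at most 26.9 normalized reads in any library and exact permutation p between 0.229 for Rbpjl and 1. The arterial list, 8 genes that Notch signaling is known to favor or that mark arteries, had 7 log2 fold changes above 0 (87.5%), a median of 0.21 and no call. The pan-endothelial markers had the same share above 0, 87.5%. Over all genes tested, 51.3% lay above 0, 1.52% were called and 2.01% had a limma unadjusted p of at most 0.05. These shares are the background for the lists that follow as well. In the arterial list the lowest p was that of Sema3g (log2 fold change 0.56, ratio 1.46, limma unadjusted p = 0.0307), which is named because of its value. The venous list of 6 genes had a median of 0.08 and the tip-cell list of 6 genes a median of 0.08, each with no call. The lymphatic list had 6 of 6 log2 fold changes above 0, a median of 0.59 and no call, and the lowest p was that of Reln (ratio 1.81, limma unadjusted p = 0.0812). The summed level of these 6 genes ranged from 3249 normalized reads in 10N to 5699.9 in 6L with anti-CD40 and from 2124 in 5L to 4116 in 8N with isotype, so that its extremes fell in the same 2 libraries as many of those of the Notch genes, and its part in their values was not tested.

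The 10 genes varied widely between single tumors. The highest library exceeded the lowest by between 1.82-fold for Notch4 and 4.87-fold for Hey2, while the ratios of group means lay between 0.666 and 1.34. Anti-CD40 library 6L was the highest for 7 genes, Dll1, Dll4, Jag2, Notch1, Notch4, Hes1 and Hey1, and isotype library 5L was the lowest for 6, Dll4, Jag1, Rbpj, Hes1, Hey1 and Hey2. Library 7N had the highest Rbpj and Hey2 and the lowest Notch1 and Notch4. Cell-type markers moved with these libraries. The pan-endothelial sum was the highest in 6L, at 49594 normalized reads, and the lowest in 5L, at 30315, followed by 7N at 31539. The mural sum was 12385 in 5L, the lowest, and 39474 in 7N, the highest. Library 5L was also the shallowest, had the lowest fibroblast sum (88497) and the highest melanoma sum (93734). When each value was set relative to the mean log2 level of the 8 pan-endothelial markers in its library, the median of all genes tested moved to −0.12. On that scale the log2 fold changes were 0.14 for Dll4, −0.09 for Jag1, 0.01 for Jag2, −0.20 for Dll1, 0.05 for Notch1, 0.07 for Notch4, −0.18 for Rbpj, 0.11 for Hes1, 0.36 for Hey1 and −0.60 for Hey2, and no Notch gene was called.

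**Figure D4:**
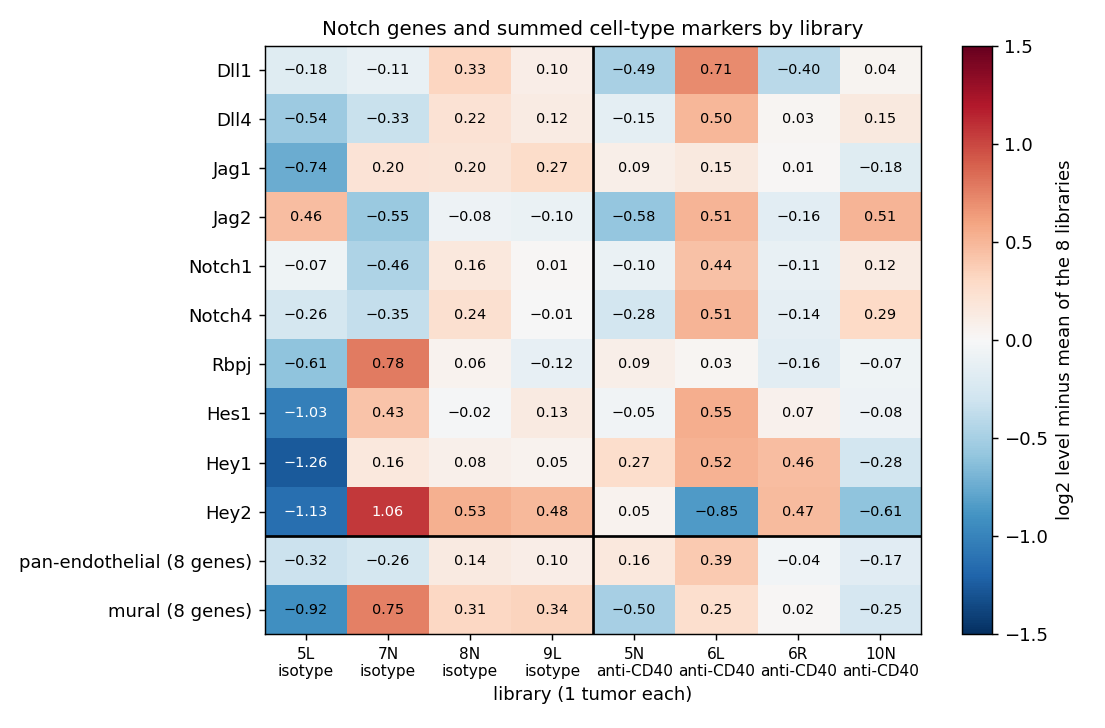
Log2 level of the 10 Notch genes, and of the summed pan-endothelial and mural markers, in each library (columns, 4 isotype then 4 anti-CD40), as the difference from the mean of the 8 libraries (red higher, blue lower). Columns 5L and 6L stand out in opposite directions for Dll4, Hes1 and Hey1, and column 7N is the highest for Rbpj, Hey2 and the mural markers.

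Ratios within a library do not depend on its size factor. The Dll4 to Jag1 ratio was 2.39, 3.58, 2.83 and 3.52 with anti-CD40 and 3.23, 1.94, 2.85 and 2.53 with isotype, so that Dll4 had more reads than Jag1 in every tumor, as a count that also reflects their lengths. The mean log2 ratio was 1.6 ± 0.28 and 1.37 ± 0.31 (SD, n = 4 each), which overlapped (difference 0.23, exact two-sided permutation p = 0.314, adjusted p = 0.628 over 2 ratios). Leaving out each library, the difference ranged from 0.09 without 7N to 0.35 without 5N, and it was 0.15 without 6L. The Notch1 to Notch4 ratio varied little, from 0.657 in 10N to 0.846 in 5L. Its mean log2 was −0.45 ± 0.15 with anti-CD40 and −0.43 ± 0.14 with isotype (SD, n = 4 each, exact two-sided permutation p = 0.886, adjusted p = 0.886).

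Whether tumors with more ligand RNA had more target RNA was examined across the 8 libraries in 6 relations, Dll4 and Jag1 each with Hes1, Hey1 and Hey2. None had an adjusted p under 0.05. The closest were those of Jag1. With Hes1, Pearson's r was 0.889 (exact permutation p = 0.0166, adjusted p = 0.0586) and Spearman's rho 0.738 (exact permutation p = 0.0458, adjusted p = 0.137). With Hey1, r was 0.876 (exact permutation p = 0.0293, adjusted p = 0.0586) and rho 0.262 (exact permutation p = 0.536, adjusted p = 0.643). With Hey2, r was 0.711 (exact permutation p = 0.0263, adjusted p = 0.0586) and rho 0.762 (exact permutation p = 0.0368, adjusted p = 0.137).
These relations rest on 5L and 10N, the libraries farthest from the median of Jag1. Without both, r was 0.243 for Hes1, −0.734 for Hey1 and 0.223 for Hey2, and no p was under 0.05 (exact permutation, p between 0.103 and 0.694). Without 5L alone, a setting chosen after seeing the data, r was 0.460, 0.337 and 0.522. Within the 4 isotype libraries, which include 5L, r of Jag1 was 0.950 with Hes1, 0.992 with Hey1 and 0.948 with Hey2, and within the 4 anti-CD40 libraries 0.681, 0.900 and 0.028. For Dll4, r was 0.637 with Hes1 (exact permutation p = 0.0866, adjusted p = 0.104), 0.648 with Hey1 (exact permutation p = 0.0867, adjusted p = 0.104) and −0.040 with Hey2 (exact permutation p = 0.925, adjusted p = 0.925), and rho was 0.381, 0.333 and 0.00 (exact permutation p = 0.360, 0.428 and 1). Without 5L and 6L, r of Dll4 was −0.693, −0.402 and −0.471. Within the anti-CD40 libraries it was 0.863, 0.215 and −0.780, and within the isotype libraries 0.527, 0.711 and 0.546.

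The levels of the 10 genes were also set against the mean log2 level of the pan-endothelial and of the mural markers, 20 relations chosen after seeing the data, of which none had an adjusted p under 0.05. The highest r with the pan-endothelial mean was that of Dll4, at 0.875 (exact permutation p = 0.00528, adjusted p = 0.0632, rho = 0.738 with p = 0.0458 and adjusted p = 0.229). It was 0.525 without 5L and 6L, 0.822 within the anti-CD40 libraries and 0.965 within the isotype libraries. The highest r with the mural mean was that of Hes1, at 0.839 (exact permutation p = 0.00632, adjusted p = 0.0632, rho = 0.786 with p = 0.0279 and adjusted p = 0.229). It was 0.621 without 5L and 5N, 0.773 within the anti-CD40 libraries and 0.986 within the isotype libraries. Among 9250 tested genes with a mean of at least 100 normalized reads, those whose log2 values followed Dll4 most closely over the 8 libraries were Sertad1 (r = 0.99), Lrch1 (r = 0.983), Kcnq1 (r = 0.982), Slc12a4 (r = 0.979) and Efnb1 (r = 0.978), which describes 8 values that share their size factors. Notch4 had an r of 0.891 with Dll4 and ranked 125, and Notch1 had an r of 0.791 and ranked 465. The remaining Notch genes in this set ranged from 0.712 for Dll1 (rank 809) to 0.067 for Rbpj (rank 4819). The pan-endothelial markers ranged from 0.880 for Cdh5 (rank 147) to 0.268 for Tek (rank 3552).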

How the data were processed

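RNA of sorted tumor endothelial cells from 8 tumors was sequenced, with 1 library per tumor, prepared with the TruSeq RNA v2 kit. According to the study's methods and the submitters' processing notes, the authors demultiplexed the reads with CASAVA 1.8, aligned them to mm10 with TopHat2 (Bowtie2 2.2.1), assigned them to genes in Partek 6.6 and scaled the counts of genes with size factors from DESeq2. The deposited signal is thus in normalized reads, 1 value per gene and library. The methods also name a correction for harvest day, a floor of 1 and a limit of 10 on the largest group mean. Zeros are present, and 99.94% of the values, and at least 99.78% in each library, lay within 0.1 of a whole multiple of 1 read, so that the reads could be recovered and neither floor nor correction is visible.

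The log2(value + 1) of 12969 genes, those whose larger group mean exceeded 10, entered a limma fit (3.58.1, R 4.3.3) that held treatment alone and moderated variances along their trend. Benjamini-Hochberg adjustment covered all of these genes. Means, SDs and ratios refer to normalized reads without logarithm. Single values were compared by exact two-sided permutation tests. Alternatives included edgeR 4.0.16 and DESeq2 1.42.0 on the recovered reads and leaving out each library. The fits were tested on simulated data with known changes. Genes named are the 10 members, and of the pathway list those called, the 3 of lowest p and the 3 of highest mean level, and the 5 genes most like Dll4. The members and the gene lists were chosen with earlier results of these data known. Reads carry no molecular identifiers. Positions and lengths come from GENCODE M21, and promoters from RefSeq.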

Additional observations from a re-analysis of the deposited data

Results flagged for a closer look

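Among 32 sets of 4 values, the 10 Notch genes and the 6 named pathway genes in each treatment, 2 held a library far from the others, where the gap to the nearest value, as a share of the range of the group, exceeds Dixon's 95% critical value. Chance marks about 1 in 20 such sets. Both were isotype library 5L. Jag1 was 587 normalized reads there, with a gap of 0.899 of the range, and Hey1 was 186, with a gap of 0.885. Library 5L has the fewest reads, the lowest mural and fibroblast sums and the highest melanoma sum of the 8, and the part of these in its Notch values was not tested.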

How the results depend on the processing

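The log2 fold changes of the 10 Notch genes were recomputed under 20 alternative settings, 8 of which left out a library. Of 199 values, 182 kept their direction and their side of the threshold, 16 changed direction and 1 newly passed it. Hey2 could not be fitted at a group mean above 50. With library quality weights the log2 fold changes were −0.17 for Jag1, 0.00672 for Dll4, −0.00762 for Notch1, −0.0197 for Notch4 and −0.0442 for Egfl7. That of Jag1 was −0.0933 relative to pan-endothelial markers, −0.0166 with edgeR and −0.0168 with DESeq2. That of Ncor1 was −0.00116 with recomputed size factors, −0.13 relative to pan-endothelial markers, −0.00147 with edgeR and −0.000649 with DESeq2. With each library left out, the log2 fold changes ranged from −0.318 to 0.0839 for Dll1, 0.128 to 0.383 for Dll4, 0.0524 to 0.261 for Notch1, 0.0559 to 0.32 for Notch4, 0.147 to 0.658 for Hey1, −0.21 to 0.13 for Jag1, −0.0251 to 0.353 for Jag2, −0.27 to 0.20 for Rbpj, −0.0614 to 0.426 for Hes1, −0.0234 to 0.307 for Egfl7, −0.121 to 0.00834 for Adam10 and −0.0538 to 0.0424 for Ncor1. The log2 fold change of Hey2 ranged from −0.926 without 5L to −0.194 without 7N. Rbpj was above 0 without 7N only. The number of Notch genes called ranged from 0 to 1, where the 1 was Hey2 without 5L. In that setting 0.945% of all genes tested were called lower, against 0.239% in the main fit. That of the pathway list, Dlk1, ranged from 0 to 1 and was 0 in limma without the trend. By the length of the longest transcript, the log2 ratio of Jag1 to Rbpj was 0.0716 and no longer past the threshold, as the length of Rbpj falls. The difference in the log2 ratio of Notch1 to Notch4 ranged from −0.0796 to 0.0466. Without the libraries farthest from the ligand's median, r was −0.693 for Dll4 and Hes1, −0.402 for Dll4 and Hey1 and −0.734 for Jag1 and Hey1, and r of Dll4 and Hey2 was 0.116 after subtracting group means. The causes were not tested. Of the 12969 genes tested, 166 were higher and 31 lower, ranging over the settings from 117 to 331 and from 13 to 123. The number of genes tested differed between these settings. The 331 were of 17946 genes with any value above 0. The 117 and the 13 were of 10854 genes with a group mean above 50, and the 123 were of 13017 without 5L. No paired analysis was run, since by the study's methods the mice were divided at random into the treatments and the labels give no pairs. Hey2 had the fewest reads of the 10 genes, 5 in 5L. With reads drawn down to the shallowest library its log2 fold change was −0.461, against −0.47 in the main fit.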
